A study of Mus musculus with 11 samples.

Results

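The genes described here are 10 genes of cell fusion and of the osteoclast, measured in mouse macrophages in 3 cytokine states: Ocstamp, Dcstamp, Cdh1, Itgb3, Car2, Acp5, Tnfrsf11a, Nfatc1, Oscar and Calcr. They are 10 of the 18193 genes on the array that have a probe set with 1 gene symbol, and among the probe sets of a gene the 1 with the highest mean over the 11 arrays stood for it. The list was selected on the log2 values of M2a against M0, since fusion genes had been seen to be higher in M2a cells. Those differences, and M2a against M1, are therefore given as a description with standard errors (SE) and no test; M1 against M0 was tested, and it shares its M0 arrays with the contrast that chose the genes. M2a cells were grown with IL-4 plus IL-13 (3 arrays), M1 cells received IFN-g and, over the last 24 h, LPS (3 arrays), and M0 cells received no cytokines (5 arrays). All 3 states were grown for 7 days from bone marrow of C57BL/6 mice aged 7 weeks. The mice were Rag1-/-, a genotype without mature T and B cells. Cells of all 3 states were sorted for F4/80, a surface protein of mouse macrophages. The labels do not say whether replicates came from separate mice or cultures, so p-values cover no more than the spread between these samples, and that spread may be technical.

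Macrophages can fuse into multinucleated cells: osteoclasts on bone, under M-CSF and RANK ligand, and giant cells elsewhere, under IL-4 or IL-13. Ocstamp and Dcstamp are membrane proteins that mouse osteoclasts and giant cells need in order to fuse. RANK, encoded by Tnfrsf11a, acts through Nfatc1, the transcription factor that switches on the osteoclast programme, while Car2, Acp5 and the integrin subunit Itgb3 serve acid secretion, phosphatase activity and attachment of the cell that resorbs bone.

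Values are the log2 probe-set values that the authors deposited, and they ran from 0.73 to 14.49, with array medians between 5.14 and 5.34. The F4/80 gene Adgre1 averaged 11.74 in M2a, 12.41 in M1 and 11.19 in M0 arrays, so the marker of the sort was high in every state. Most neutrophil markers were higher in M0 than in the cytokine states: their linear values summed to 453 to 524 in M2a, 12276 to 13222 in M1 and 52861 to 104249 in M0 arrays, and 10 of 10 were lower in M2a and 9 of 10 in M1 than in M0 by the limma test. The exception in M1 was Lcn2, which averaged 12.65 in M1 and 12.45 in M0 arrays. On the spiked hybridization controls, which should not depend on the cells, the mean was 9.59 to 9.78 in M2a, 9.35 to 9.56 in M1 and 10.44 to 11.56 in M0 arrays. The poly-A controls set M0 further apart, at 6.13 to 6.32 in M2a, 5.58 to 5.67 in M1 and 8.99 to 10.15 in M0 arrays. Xist, which coats the inactive X chromosome, was 5.58 and 5.81 in M2a replicates 1 and 2, 5.37 to 5.98 in M1 and 11.74 to 12.01 in M0 arrays, and the Y-linked Eif2s3y was 8.48 to 8.96 in M2a, 8.48 to 8.87 in M1 and 2.36 to 3.02 in M0 arrays. M0 thus differed from the cytokine states in Eif2s3y and in array controls as well as in cytokines, and these cannot be told apart. M2a replicate 3 stood apart in Xist, at 5.19 above the higher of the other M2a arrays, and its Eif2s3y was 8.48. All M0 arrays were high in Xist and low in Eif2s3y, and all M1 arrays and M2a replicates 1 and 2 were the reverse. Only M2a replicate 3 was high in both RNAs. Whether that array holds RNA of both female and male cells was not tested. On all 45101 probe sets, averaging M0 replicates 1 to 3 gave the same value, within 8.3e-05, as averaging M0 replicates 4 and 5; the 5 M0 arrays are thus not independent, while the fit counts them as such. The RNA is of bulk cells, in which fewer cells of a type and less RNA per cell cannot be told apart.

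Ocstamp, Dcstamp and Cdh1, the members known for joining cells, were all higher in M2a than in M0 cells, by 2.96 to 3.10 on the log2 scale, whereas in M1 cells Cdh1 was lower and the other 2 did not pass the test. Ocstamp (probe set 1425386_at) had log2 values of 8.39, 8.40 and 7.20 in M2a, 5.11, 5.24 and 5.27 in M1, and 4.74, 5.27, 4.69, 4.79 and 5.01 in M0 arrays. Its M2a values lay above every M1 and M0 value, while the M1 and M0 values overlapped. The log2 difference was 3.10 ± 0.25 (SE) for M2a minus M0, or 8.57-fold, and 0.31 ± 0.25 for M1 minus M0 (limma adjusted p = 0.35). All but 1 M0 value lay under the median of its array and there are no detection calls, so the fold is one of probe-set values. M2a replicate 3 was the lowest M2a array, and without it the M2a minus M0 difference was 3.50.

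Dcstamp (1431970_at), the partner of Ocstamp in fusion, had log2 values of 9.26, 9.32 and 8.43 in M2a, 6.02, 5.84 and 5.76 in M1, and 5.57, 6.60, 5.96, 6.29 and 5.81 in M0 arrays. The M2a arrays again stood clear of all others, and the M1 values lay inside the M0 range. M2a minus M0 was 2.96 ± 0.25, or 7.77-fold, and M1 minus M0 was -0.18 ± 0.25 (limma adjusted p = 0.60). M2a minus M1 was 3.13 ± 0.27 for Dcstamp and 2.79 ± 0.28 for Ocstamp.

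Cdh1 (1448261_at) encodes E-cadherin, an adhesion molecule of epithelia that mouse macrophages make under IL-4 and that takes part in their fusion. It had log2 values of 7.35, 7.18 and 7.86 in M2a, 2.67, 2.45 and 2.35 in M1, and 5.44, 4.01, 3.65, 3.87 and 4.86 in M0 arrays. No 2 states overlapped: M2a was highest, M0 intermediate and M1 lowest, with the M1 values and all but 1 M0 value under the array medians. On the log2 scale, M2a minus M0 was 3.10 ± 0.36 and M2a minus M1 was 4.98 ± 0.40; no fold is given, since the values they are set against are dim. In M1, Cdh1 was lower than in M0 (log2 difference -1.88 ± 0.36, limma adjusted p = 0.0015). With the mean of the hybridization controls added to the fit as a covariate, the M1 difference was -1.44 and no longer passed (adjusted p = 0.14). Of 8 epithelial markers, 2 were higher in M2a than in M0, and their linear values summed to 319 to 332 in M2a, 303 to 321 in M1 and 263 to 356 in M0 arrays; their part in the Cdh1 difference was not tested.

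**Figure D1:**
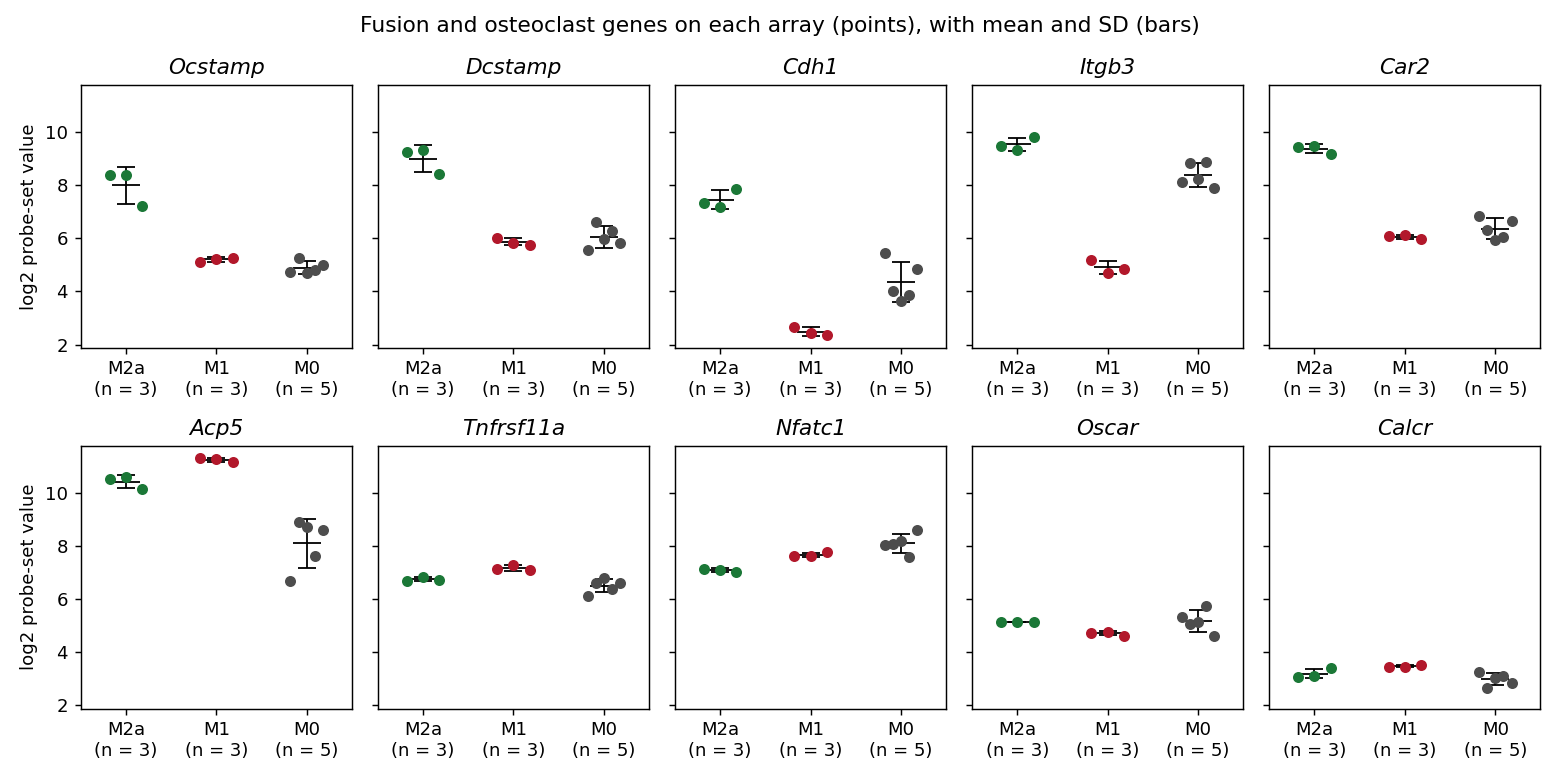
Log2 probe-set values (vertical axis) of the 10 genes on each array (points), with the mean and SD of M2a (n = 3), M1 (n = 3) and M0 (n = 5) as bars. Ocstamp, Dcstamp, Cdh1 and Car2 are highest in M2a, Acp5 is high in M2a and M1, Itgb3 is lowest in M1, and Oscar differs little between states.

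By the smallest root mean square difference of centred log2 values over the 11 arrays, the genes most like Ocstamp were Vsig8 (0.28), Uchl1 (0.30) and Dcstamp (0.30). Those most like Dcstamp were Rbp4 (0.24), Stac2 (0.24) and Ocstamp (0.30), so each of the fusion genes was among the 3 nearest of the other. Car2 ranked 17 for Ocstamp (0.43) and 28 for Dcstamp (0.45). Cdh1 had no equally close match: Klf9 (0.53), Cpeb1 (0.58) and Asns (0.59) came nearest. The 11 arrays fall into 3 states, so likeness over them mostly reflects the means of those states.

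Itgb3 encodes the beta3 integrin subunit, which pairs with the alphaV subunit (Itgav) to hold osteoclasts to bone. Its log2 values (1455257_at) were 9.47, 9.33 and 9.82 in M2a, 5.19, 4.68 and 4.84 in M1, and 8.11, 8.85, 8.22, 8.89 and 7.89 in M0 arrays. The 3 states did not overlap, with M2a above M0 and M1 far below both. Itgb3 in M2a minus M0 was 1.14 ± 0.24 (2.21-fold higher). M1 was lower than M0 (log2 difference -3.49 ± 0.24, limma adjusted p = 4.7e-07). No fold is given for M1, since its values lay under the array medians. A second probe set, 1421511_at, gave the same directions, 0.85 for M2a minus M0 and -0.19 for M1 minus M0; with the mean of both probe sets the M1 difference was -1.84. Itgb3 is also a platelet integrin that pairs there with Itga2b, and the megakaryocyte markers moved as well, with 5 of 7 lower in each cytokine state. Itga2b was at -1.60 in M2a and -2.19 in M1, and Pf4 at -3.54 in M2a and -4.40 in M1. Gp6 of the same list went the other way, at 0.32 in M2a and 2.72 in M1, and Gp1bb was at -0.14 and -0.44. The part of these markers in the Itgb3 difference was not tested. The alphaV partner Itgav was lower than M0 in both states, with log2 differences of -0.67 in M2a (limma adjusted p = 0.026) and -0.79 in M1 (adjusted p = 0.0093). The M2a difference of Itgav did not pass without any 1 M2a array or without M0 replicate 2 or 3, when it was -0.74 to -0.55.

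Car2 (1448752_at) encodes carbonic anhydrase II, which supplies the protons that osteoclasts pump onto bone. Its log2 values were 9.44, 9.49 and 9.18 in M2a, 6.08, 6.12 and 5.98 in M1, and 6.83, 6.33, 5.93, 6.05 and 6.67 in M0 arrays. M2a stood clear of both other states, and the M1 values lay inside the M0 range. The M2a minus M0 difference was 3.01 ± 0.19 (8.05-fold higher), and M1 minus M0 was -0.30 ± 0.19 (limma adjusted p = 0.23). Car2 is also strong in red cell precursors. On the linear scale, erythroid markers summed to 222 to 240 in M2a, 224 to 261 in M1 and 202 to 265 in M0 arrays. Of the 6 measured, none differed between M2a and M0 by the limma test, and 1 was higher in M1 than in M0. Car1, Hba-a1 and Slc4a1 were under the median of every array. The part of these markers in the Car2 difference was not tested.

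Acp5 encodes tartrate-resistant acid phosphatase, the enzyme by which osteoclasts are stained, and it was the member that was high in both cytokine states. Its log2 values (1431609_a_at) were 10.54, 10.61 and 10.13 in M2a, 11.30, 11.29 and 11.16 in M1, and 6.69, 8.90, 8.70, 7.61 and 8.59 in M0 arrays. Every M1 array was above every M2a array, and all of these were above every M0 array. In M2a, Acp5 differed from M0 by 2.33 ± 0.42 (5.02-fold higher). M1 was 8.89-fold higher than M0 (log2 difference 3.15 ± 0.42, limma adjusted p = 1.1e-04). The lowest M0 values were those of replicates 1 and 4, the arrays with the highest hybridization controls (11.56 and 11.49). With these controls as a covariate the differences were 0.32 in M2a and 0.85 in M1 (adjusted p = 0.15), and without those 2 arrays M2a minus M0 was 1.69; the part of the controls in the result was not tested.

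The promoters of 4 of the 10 members, with 7 starts, are in the RefSeq table of build GRCm38.p6 used here. The 2 shown are the member promoters that hold a match to 1 of 6 searched motifs, in the 250 bases before the start; the other 5 held none. Capitals mark matches on either strand, and both genes lie on the minus strand. For Acp5 (chr9:22130599-22130848) they are TTTCCA, the reverse of the NFAT-type TGGAAA, at 117 to 112 bases before the start, and TTCTGGGGAA, a STAT-type match (TTC and GAA with 4 bases of any kind between them), at 110 to 101 bases before it. For Oscar (chr7:3616158-3616407) they are TTTCCA at 249 to 244 and at 82 to 77 bases, and TTCCTC, the reverse of the PU.1-type GAGGAA, at 237 to 232 bases before the start.
Acp5: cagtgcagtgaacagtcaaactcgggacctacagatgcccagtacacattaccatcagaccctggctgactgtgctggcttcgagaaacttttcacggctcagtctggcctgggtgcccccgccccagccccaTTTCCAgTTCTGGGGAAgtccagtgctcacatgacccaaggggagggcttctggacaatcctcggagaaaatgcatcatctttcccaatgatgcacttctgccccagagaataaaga
Oscar: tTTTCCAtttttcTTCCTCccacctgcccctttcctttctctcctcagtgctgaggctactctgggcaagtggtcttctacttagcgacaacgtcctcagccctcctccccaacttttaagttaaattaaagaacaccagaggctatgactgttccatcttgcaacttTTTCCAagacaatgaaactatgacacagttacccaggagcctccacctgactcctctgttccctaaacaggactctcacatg
Of 32851 mouse promoters of this length, 5.85% held that STAT-type motif, 18.6% held TGGAAA and 23.3% held GAGGAA. Matches to TTCNNNGAA (7.02%), TGANTCA (6.75%) and CACGTG (6.02%) were not found in the member promoters. A match describes letters in this window and does not show that a factor binds there.

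Tnfrsf11a encodes RANK, the receptor through which RANK ligand starts osteoclast formation. Its log2 values (1419214_at) were 6.70, 6.85 and 6.71 in M2a, 7.13, 7.28 and 7.09 in M1, and 6.13, 6.59, 6.81, 6.39 and 6.62 in M0 arrays. M2a overlapped M0, while every M1 array was above both. RANK in M2a minus M0 came to 0.25 ± 0.14, and M1 was 1.58-fold higher than M0 (0.66 ± 0.14, limma adjusted p = 0.0027). The M1 difference no longer passed with the hybridization control covariate (0.09, adjusted p = 0.74) or with the actin 5' minus 3' difference as one (0.53, adjusted p = 0.050). A second probe set gave 0.96 for M2a minus M0 and 0.52 for M1 minus M0, so the 2 probe sets differ in which state is higher. Its ligand Tnfsf11 was low, with log2 values of 4.04 to 4.26 in M2a, 4.03 to 4.16 in M1 and 3.61 to 4.60 in M0 arrays, all under the array medians.

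Nfatc1, the leading transcription factor of osteoclasts, was lowest in M2a on its brightest probe set. Its log2 values (1428479_at) were 7.15, 7.11 and 7.02 in M2a, 7.63, 7.63 and 7.76 in M1, and 8.05, 8.07, 8.19, 7.59 and 8.61 in M0 arrays. M2a lay below every other array, and M1 overlapped M0 only through M0 replicate 4. Nfatc1 in M2a minus M0 was -1.01 ± 0.18 (2.01-fold lower), and M1 minus M0 was -0.43 ± 0.18 (limma adjusted p = 0.071). Of 25 other settings, 9 took the M1 difference past the threshold, always lower in M1; without M0 replicate 4 it was -0.56 (adjusted p = 0.0062). The 4 other probe sets gave M2a minus M0 differences of -0.53, -0.35, -0.20 and 0.09, and the mean of the probe sets gave -0.40, so the size and sign of the M2a difference depend on the probe set. On the second-brightest one M1 was lowest, with 6.96 to 7.01 in M2a, 6.77 to 6.93 in M1 and 7.29 to 7.39 in M0 arrays.

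Oscar, an immunoglobulin-like receptor that costimulates osteoclasts through the Fc receptor gamma chain, did not separate M2a from M0. Its log2 values (1425442_at) were 5.12, 5.14 and 5.14 in M2a, 4.74, 4.76 and 4.62 in M1, and 5.32, 5.06, 5.14, 5.74 and 4.61 in M0 arrays. M0 covered the range of both cytokine states. M2a minus M0 was -0.04 ± 0.19 and M1 minus M0 was -0.47 ± 0.19 (limma adjusted p = 0.075); 4 of 24 other settings took the M1 difference past the threshold, among them leaving out M0 replicate 5 (-0.61, adjusted p = 0.0052). The difference turned to 0.48 with the hybridization control covariate and 0.18 with the actin covariate, and passed in neither. The second probe set gave 0.04 and 0.12.

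Calcr encodes the calcitonin receptor, found on mature osteoclasts, and was under the median of every array. Its log2 values were 3.08, 3.10 and 3.40 in M2a, 3.45, 3.45 and 3.52 in M1, and 3.25, 2.66, 3.04, 3.12 and 2.85 in M0 arrays. The M1 values were above the M0 values, and M2a overlapped M0. M1 was higher than M0 (log2 difference 0.49 ± 0.13, limma adjusted p = 0.013); without M1 replicate 3 it was 0.47 and did not pass (adjusted p = 0.052). Calcr in M2a minus M0 was 0.21 ± 0.13, and 0.10 without M2a replicate 3.

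**Figure D2:**
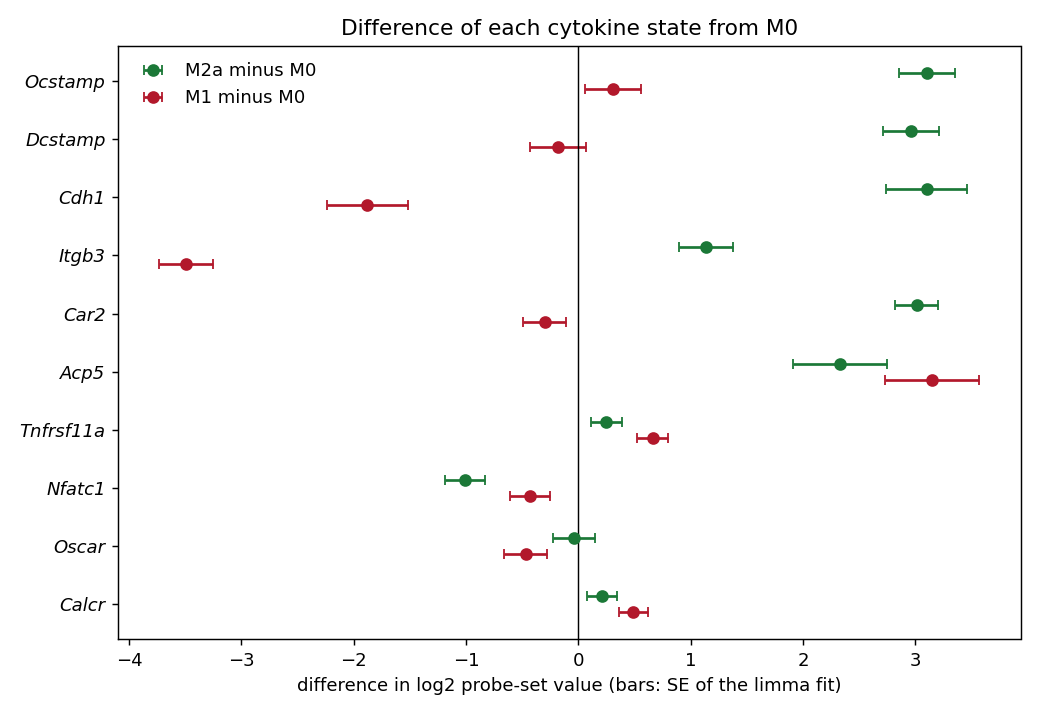
Difference in log2 probe-set value (horizontal axis) of M2a minus M0 (green) and M1 minus M0 (red) for the 10 genes, with the SE of the limma fit as bars. Ocstamp, Dcstamp, Cdh1 and Car2 lie between 2.96 and 3.10 in M2a, Acp5 lies right of 0 in both states, and Cdh1 and Itgb3 lie on opposite sides of 0 in M2a and M1.

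Counted over the list, 6 members were higher in M2a with no overlap with M0 (Ocstamp, Dcstamp, Cdh1, Itgb3, Car2 and Acp5), 1 was lower (Nfatc1) and 3 overlapped (Tnfrsf11a, Oscar and Calcr). Of all 18193 genes, 21.3% were higher and 13.9% lower without overlap in that contrast, which chose the list. The same 6 members were at least 2-fold higher in M2a, as were 4.48% of all genes, and Nfatc1 was at least 2-fold lower, as were 4.97%. In M1 against M0, 3 members were higher by the limma test (Acp5, Tnfrsf11a and Calcr), against 22.1% of all genes, and 2 were lower (Cdh1 and Itgb3), against 17.6% of all genes (39.7% in either direction); with 10 genes these counts are near the shares over all genes. The median log2 difference of the members was 1.74 for M2a minus M0 (0.07 over all genes) and -0.24 for M1 minus M0 (0.06 over all genes). Between the cytokine states, 6 members were higher in M2a than in M1 without overlap (33.9% of all genes) and 4 were lower (30.7%), namely Acp5, Tnfrsf11a, Nfatc1 and Calcr. Seen without M2a replicate 3, the M2a minus M0 differences were 3.24 for Dcstamp, 2.90 for Cdh1, 2.48 for Acp5 and -0.97 for Nfatc1.

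Other genes of the pathway were taken from 10 lists of 177 genes, of which 170 were measured, and are tested with the same fit. These lists were chosen with earlier results of these data known. Their counts and p-values are therefore no independent support for a change in the pathway. In M2a against M0, 48 of the 170 were higher and 34 lower, beside 18.6% and 13.3% of all genes; in M1 against M0, 53 were higher and 37 lower, beside 22.1% and 17.6% of all genes. In M2a against M1, 44 were higher and 42 lower, beside 15.6% and 13.7% of all genes (29.4% in either direction). The same shares over all genes belong beside the counts of each list below. In lists of 8 to 30 measured genes, a count near those shares is no result about the list.

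**Figure D3:**
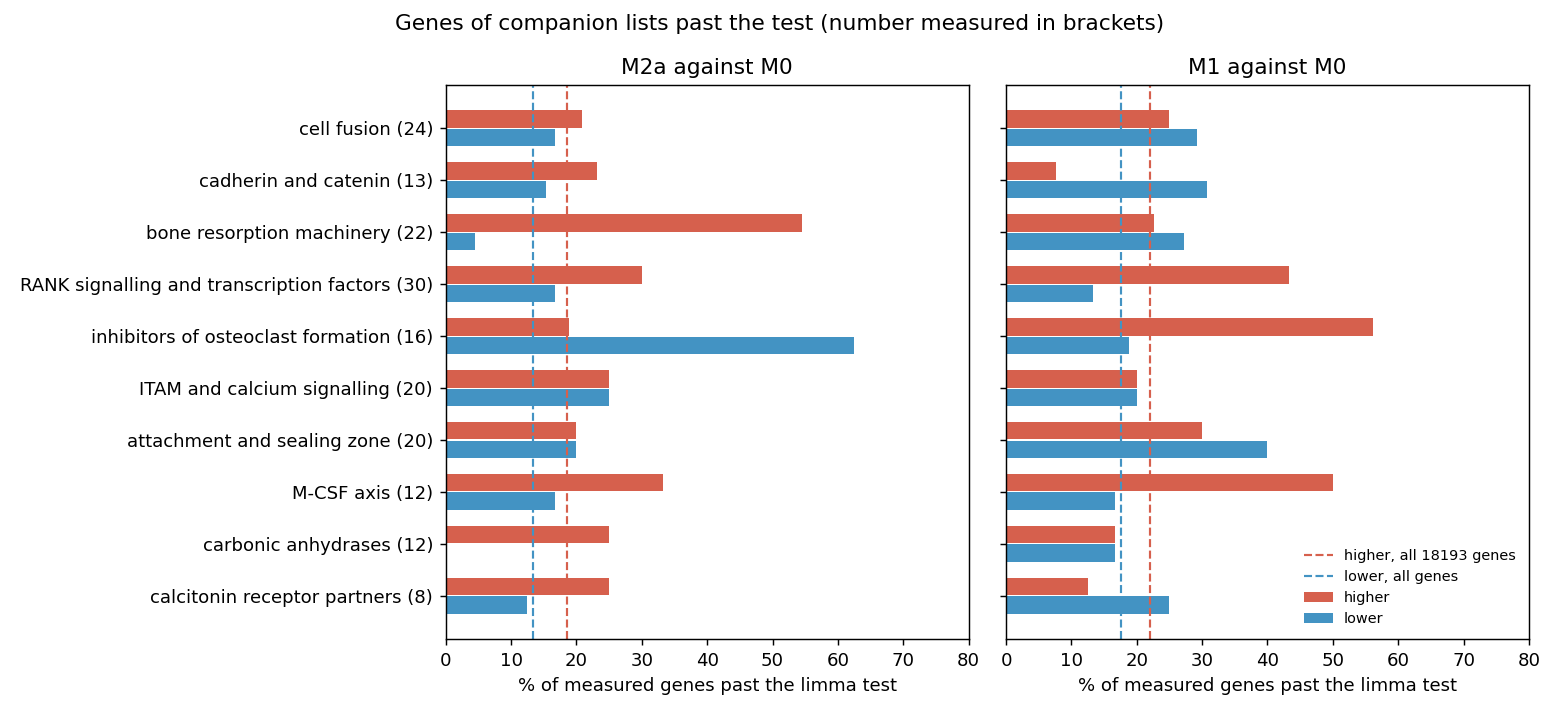
Share of the measured genes of each list (percent, horizontal axis; number measured in brackets) that were higher (red) or lower (blue) by the limma test in M2a against M0 (left) and in M1 against M0 (right), with the shares over all 18193 genes as dashed lines. In M2a the bone resorption list has the longest bar of higher genes (12 of 22) and the inhibitor list the longest bar of lower genes (10 of 16); in M1 the inhibitor list has 9 of 16 higher.

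Of 22 genes of the bone resorption machinery, 12 were higher and 1 lower in M2a (median log2 difference 0.50, against 0.07 over all genes), and 5 were higher and 6 lower in M1 (median -0.14). Ctsk, the protease that digests bone collagen, had log2 values of 11.50, 11.35 and 11.47 in M2a, 7.21, 7.01 and 7.05 in M1, and 6.68, 8.22, 7.81, 6.73 and 8.41 in M0 arrays. M2a was far above the other states, with a difference of 3.87 ± 0.36 from M0 (limma adjusted p = 1.1e-05; 1.90 with the hybridization control covariate). M1 minus M0 was -0.48 for Ctsk (adjusted p = 0.32), and -2.74 and past the threshold with the hybridization control covariate (adjusted p = 2.3e-06). Atp6v0d2, a proton pump subunit that is also needed for fusion of mouse osteoclasts, had 12.37, 12.37 and 12.44 in M2a, 4.99, 4.69 and 5.46 in M1, and 8.53, 10.10, 10.76, 9.46 and 10.13 in M0 arrays. It was higher in M2a by 2.60 ± 0.39 (adjusted p = 0.00039), a call lost with the same covariate (0.99), and lower in M1 by a log2 difference of -4.75 ± 0.39 (adjusted p = 2.3e-06). The proton pump subunits Atp6v1h, Atp6v1b2 and Atp6v1c1 were higher in M2a by 1.31, 1.27 and 1.00, or 0.17, 0.48 and 0.22 with that covariate, where the first and the third did not pass.

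Other genes of the resorption list differed from this. Mmp14, a membrane-bound collagenase, was lower in M2a (-2.61 ± 0.34, limma adjusted p = 0.00015) and higher in M1 (2.86 ± 0.34, adjusted p = 5e-05), and the M1 difference was 1.22 and not past the threshold with the hybridization control covariate. With the mean of its probe sets Mmp14 was at -1.36 in M2a, and it was at -4.05 there with the hybridization control covariate. Mmp9, a gelatinase, was at -0.61 in M2a (adjusted p = 0.053) and lower in M1 (-2.59, adjusted p = 2.8e-06). The chloride transporter Clcn7 was higher in M2a (0.68, adjusted p = 0.026) and in M1 (2.07), and its M2a call was lost without any 1 M2a array and with the covariate (0.03). The lysosomal phosphatase Acp2 and Snx10, a trafficking gene of the osteoclast, were higher in M1 by 2.29 and 1.81, or 0.84 and 0.90 with the covariate. The count of 12 higher genes was 8, 7 and 8 without M2a replicate 1, 2 and 3, and 4 with the hybridization control covariate. Over all 18193 genes, 3380 were called higher in M2a as reported. The all-gene count was 2312, 2372 and 2380 without those arrays and 4137 with the covariate. With the covariate the list thus had fewer higher calls, while all genes together had more.

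**Figure D4:**
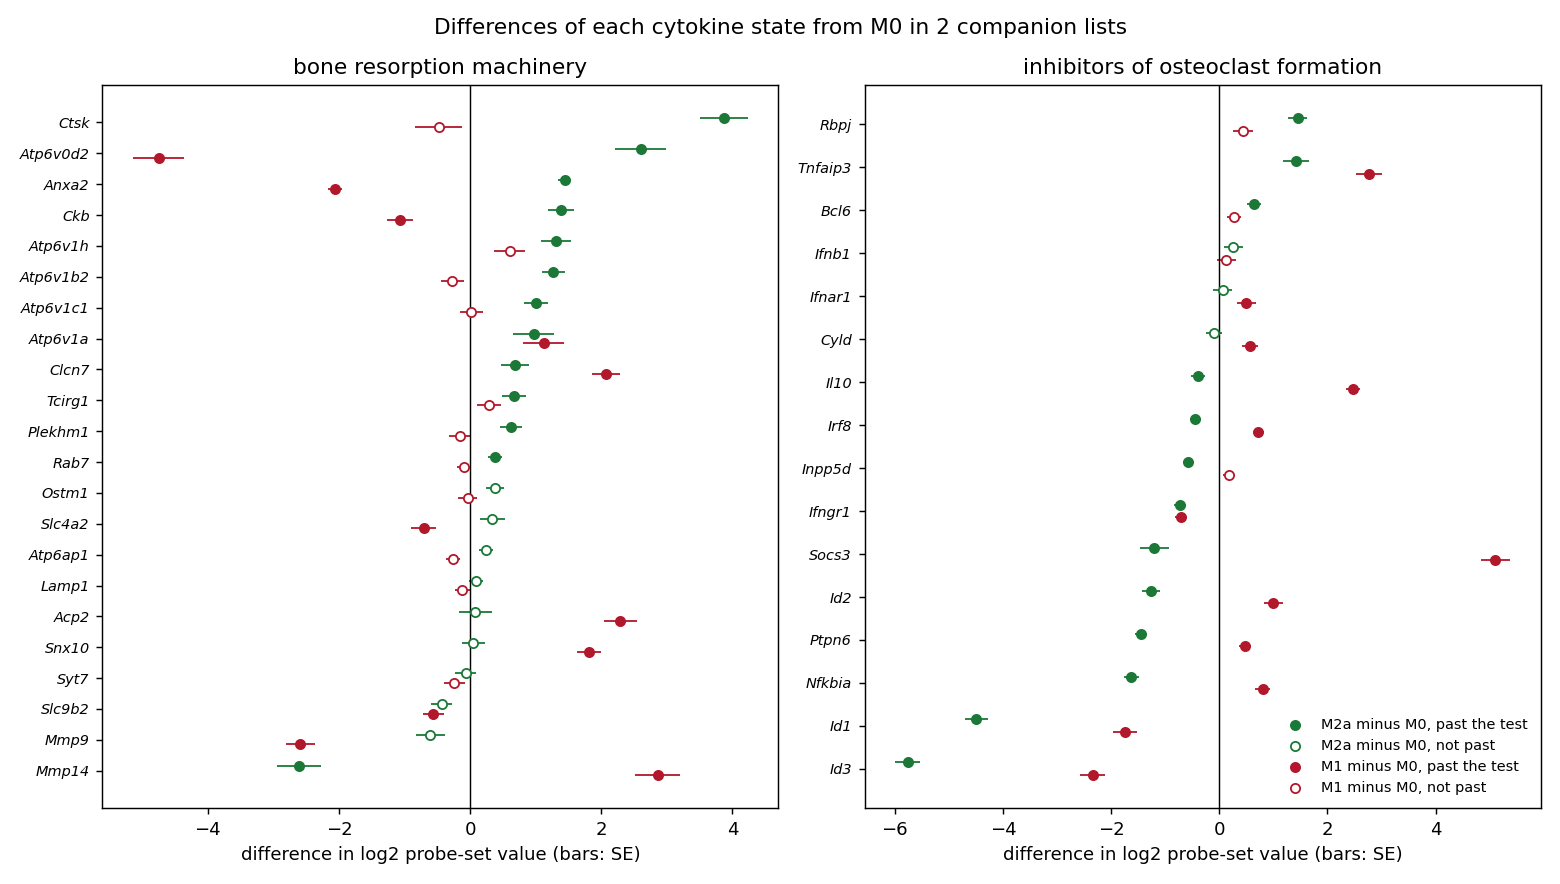
Difference in log2 probe-set value from M0 (horizontal axis, bars SE) of M2a (green) and M1 (red) for the bone resorption list (left) and the list of inhibitors of osteoclast formation (right); filled points passed the limma test. Ctsk and Atp6v0d2 lead the M2a side on the left, and Id3 and Id1 lie farthest to the left among the inhibitors, at -5.76 and -4.49 in M2a.

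Of 16 measured inhibitors of osteoclast formation, 10 were lower and 3 higher in M2a (median -0.50), whereas 9 were higher and 3 lower in M1 (median 0.49). Id3, which restrains Nfatc1 induction in mouse cells, had log2 values of 4.67, 4.55 and 4.66 in M2a, 8.05 ± 0.07 (mean ± SD, n = 3) in M1, and 9.82, 10.72, 10.61, 9.90 and 10.88 in M0 arrays. The states did not overlap, and both cytokine states were lower than M0, by -5.76 ± 0.23 in M2a (limma adjusted p = 1.3e-08) and -2.34 ± 0.23 in M1 (adjusted p = 8.7e-06). Its relative Id1 followed the same order, at -4.49 in M2a and -1.74 in M1; with the hybridization control covariate the M1 differences were -3.67 for Id3 and -2.64 for Id1. Socs3, a brake on cytokine signalling, was lower in M2a (-1.20, adjusted p = 0.005; not past the threshold with the hybridization control covariate) and higher in M1 (5.10, adjusted p = 5.8e-08). The NF-kappaB inhibitor Nfkbia was lower in M2a and higher in M1, at -1.63 and 0.80, and its M1 call was lost with that covariate (0.56). Rbpj, a Notch pathway factor, and Tnfaip3, an NF-kappaB brake, were higher in M2a, by 1.45 and 1.42, or by 0.72 and 0.29 with the covariate, where Tnfaip3 did not pass (adjusted p = 0.33). In M1, with the hybridization control covariate, 4 inhibitors were higher and 4 lower. Of all 18193 genes, 3869 were higher and 3975 lower in M1 with that covariate.

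Irf8, a transcription factor whose loss gives mice more osteoclasts, had log2 values of 8.96 ± 0.03 (mean ± SD, n = 3) in M2a, 10.10, 10.11 and 10.14 in M1, and 9.20, 9.44, 9.56, 9.24 and 9.56 in M0 arrays. The states did not overlap: M2a was lower than M0 by -0.44 ± 0.10 (limma adjusted p = 0.007; -0.82 with the hybridization control covariate) and M1 higher by 0.72 ± 0.10 (adjusted p = 0.0002; 0.28 and not past the threshold with that covariate). Of its 2 starts in the RefSeq table, the 1 shown holds 2 matches to the STAT-type TTCNNNGAA, in capitals, at 171 to 163 and at 153 to 145 bases before the start (RefSeq, GRCm38.p6, chr8:120736108-120736357, plus strand); the other start held no match to any of the 6 motifs.
Irf8: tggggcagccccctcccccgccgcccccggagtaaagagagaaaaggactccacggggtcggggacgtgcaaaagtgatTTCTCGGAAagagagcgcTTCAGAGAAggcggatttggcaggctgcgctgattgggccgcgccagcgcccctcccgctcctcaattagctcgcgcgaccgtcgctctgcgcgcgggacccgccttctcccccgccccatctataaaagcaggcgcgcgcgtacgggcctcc

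Of 24 genes of the cell fusion list, 5 were higher and 4 lower in M2a (20.8% and 16.7%, beside 18.6% and 13.3% of all genes). In M1, 6 were higher and 7 lower (25% and 29.2%, beside 22.1% and 17.6% of all genes). The medians were -0.05 in M2a and -0.07 in M1, beside 0.07 and 0.06 over all genes. The M2a counts are near the shares over all genes and are no result about the list. Cd200, whose receptor acts in osteoclast fusion in mice, had values of 9.43 to 9.55 in M2a, 9.16 to 9.30 in M1 and 4.61 to 6.47 in M0 arrays. It was higher in both states, by 3.92 ± 0.38 in M2a (limma adjusted p = 1.4e-05) and 3.63 ± 0.38 in M1 (adjusted p = 1.6e-05), or 2.12 and 1.56 with the hybridization control covariate. The tetraspanins Cd9 and Cd81, which limit macrophage fusion in mice, were lower in M1, by log2 differences of -3.30 and -2.13; Cd81 was also lower in M2a (-0.78, or -1.54 with the hybridization control covariate), and Cd9 was at 0.26 there (adjusted p = 0.34). Ccl2, a chemokine of giant cell formation, was lower in M2a at -2.06 (adjusted p = 0.0048; -4.16 with that covariate). Trem2, a receptor for fusion and osteoclast formation, was higher in M2a (0.63, adjusted p = 0.025) and lower in M1 (-0.75, adjusted p = 0.0088). Without any 1 M2a array the rise of Trem2 no longer passed, with the hybridization control covariate it was -0.30, and M1 minus M0 was 0.51 once _x_at and _s_at probe sets, those open to cross-matching, were left out. Its adaptor Tyrobp was at -0.21 in M2a and -0.15 in M1 (adjusted p = 0.072 and 0.18).

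Around Cdh1, 3 of 13 cadherin and catenin genes were higher and 2 lower in M2a, and 1 was higher and 4 lower in M1 (medians -0.02 and -0.17). The protocadherin Pcdh7, which mouse osteoclast precursors need for fusion, was 8.47 to 8.68 in M2a, 5.96 to 6.24 in M1 and 5.10 to 5.66 in M0 arrays. Pcdh7 was higher in M2a by 3.12 ± 0.13 (limma adjusted p = 2.1e-08) and in M1 by 0.62 ± 0.13 (adjusted p = 0.0027), a call lost with the hybridization control covariate (0.18, adjusted p = 0.54). Of the cytoplasmic partners of E-cadherin in M2a, Ctnna1 was at 0.12 (adjusted p = 0.59) and Ctnnb1 at 0.14 (adjusted p = 0.69), while Ctnnd1 was higher by 0.91 (adjusted p = 0.01; -0.13 with the hybridization control covariate). In M1, Ctnna1 and the actin linker Vcl were lower, at -1.07 and -2.50 (-0.52 and -1.35 with the mean of their probe sets). Cdh2, the neuronal cadherin, was lower in both, at -2.23 in M2a and -2.47 in M1, or -1.47 and -1.43 with the mean of its probe sets.

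Of 30 measured genes of RANK signalling and its transcription factors, 9 were higher and 5 lower in M2a (median 0.09), and 13 were higher and 4 lower in M1 (median 0.19). Ppargc1b, a coactivator of mitochondrial genes in osteoclasts, was 8.92 to 9.12 in M2a, 8.04 to 8.22 in M1 and 6.52 to 7.11 in M0 arrays, and was higher by 2.21 in M2a (limma adjusted p = 6.5e-07) and 1.32 in M1 (adjusted p = 2.2e-05). Mitf, which switches on Acp5 and Ctsk, was higher by 1.56 in M2a and 1.13 in M1, and was at -0.03 and -0.69 with the hybridization control covariate. Relb, of the alternative NF-kappaB pathway, was higher in M1 (2.13, adjusted p = 1.6e-06; 1.21 with that covariate) and at 0.31 in M2a (adjusted p = 0.19; -0.50 and past the threshold with it). The AP-1 genes split, with Fosl1 higher in M2a and M1 (0.97 and 1.72) and Fos lower (-0.86 and -0.56). The covariate put Fosl1 at 0.16 in M2a (adjusted p = 0.53, a lost call) and 0.79 in M1, and Fos at -0.92 in M1. Traf6, the adaptor of RANK, was at -0.03 in M2a and higher in M1 (0.48, adjusted p = 0.0056), and did not pass in M1 with the mean of its probe sets (0.19) or with the covariate (0.25).

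Of 20 measured genes of ITAM and calcium signalling, 5 were higher and 5 lower in M2a (25% each, beside 18.6% and 13.3% of all genes). In M1, 4 were higher and 4 lower (20% each, beside 22.1% and 17.6% of all genes). The adaptor Blnk and the ubiquitin ligase Cblb were higher in M2a, by 1.69 and 2.59; the hybridization control covariate put Blnk at -0.09 and Cblb at 0.63. The kinase Tec was higher in M2a and lower in M1, at 0.58 and -1.14, and the inhibitory receptor Pirb was lower in M2a and higher in M1, at -0.56 and 1.34. The calcineurin subunit Ppp3ca, which acts on Nfatc1, was at -0.08 in M2a (limma adjusted p = 0.62) and lower in M1 at -1.49 (adjusted p = 8.8e-07).

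Of 20 measured genes of attachment and the sealing zone, 4 were higher and 4 lower in M2a (20% each, beside 18.6% and 13.3% of all genes). In M1, 6 were higher and 8 lower (30% and 40%, beside 22.1% and 17.6% of all genes, median -0.17). Cttn, an actin regulator of the sealing zone, was 9.13 to 9.51 in M2a, 5.94 to 6.30 in M1 and 6.65 to 7.56 in M0 arrays. Like Cdh1 and Itgb3 it was higher in M2a (2.18, limma adjusted p = 5.1e-06) and lower in M1 (-1.03, adjusted p = 0.00098). The integrin subunit Itgb5, which can take the place of Itgb3 beside Itgav, was at -0.16 in M2a and lower in M1 at -1.97, whereas Itga5 was higher in M2a and M1, by 1.13 and 1.73 (0.67 in M2a with the mean of its probe sets).

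Of 12 M-CSF axis genes, 4 were higher and 2 lower in M2a, and 6 were higher and 2 lower in M1 (median 0.26 in M1). Csf1r, the M-CSF receptor of macrophages and osteoclast precursors, was 11.69 to 12.19 in M2a, 13.45 to 13.48 in M1 and 12.91 to 13.40 in M0 arrays, and was lower in M2a (-1.21 ± 0.14, limma adjusted p = 5.5e-05). Its ligand Csf1 was lower in M2a and M1, at -2.43 and -3.15, or -1.28 and -1.30 with the mean of its probe sets. The survival gene Bcl2 was higher in M2a, by 1.92, or 1.14 with that mean.

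Of the 12 carbonic anhydrases besides Car2, 3 were higher and 0 lower in M2a, and 2 were higher and 2 lower in M1. Car6, the secreted form, had log2 values of 8.23, 8.16 and 9.52 in M2a, 5.02, 4.67 and 4.73 in M1, and 4.54, 4.14, 4.15, 4.24 and 4.32 in M0 arrays. It was higher in M2a by 4.36 ± 0.26 (limma adjusted p = 3.2e-07), and M2a replicate 3 was its highest array. Mitochondrial Car5b was higher in M2a (2.24) and lower in M1 (-0.49; -0.22 with the mean of its probe sets, and -0.39 and not past the threshold with the hybridization control covariate), and cytosolic Car13 was higher in M2a and M1 (1.73 and 3.02; -0.32 and 0.67 with that covariate, neither past the threshold). Of 8 measured partners of the calcitonin receptor, 2 were higher and 1 lower in M2a, and 1 was higher and 2 lower in M1. With 8 genes, these counts cannot be set apart from the shares over all genes. Ramp1, which changes the ligand choice of the receptor, was lower in both, at -1.87 in M2a and -4.39 in M1, or -0.76 and -1.87 with the mean of its probe sets; the M2a call was lost with the hybridization control covariate (-1.02).

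Markers of other cells moved between the states beside these genes, and their part in the results was not tested. Of 8 macrophage markers, 1 was higher and 5 lower in M2a, and 4 were higher and 1 lower in M1; their linear sum was 24694 to 26447 in M2a, 51835 to 52228 in M1 and 31765 to 42215 in M0 arrays. Eosinophil, basophil and mast cell markers summed to 131 to 146 in M2a, 130 to 148 in M1 and 4539 to 11899 in M0 arrays, with 7 of 7 lower in both states. Megakaryocyte markers summed to 653 to 813 in M2a, 637 to 710 in M1 and 4789 to 6848 in M0 arrays, with 5 of 7 lower in both states and 1 higher in M1. Dendritic cell markers summed to 4014 to 4923 in M2a, 279 to 290 in M1 and 320 to 405 in M0 arrays, and Itgax made up most of the M2a sum. Itgax averaged 12.07 in M2a, 5.92 in M1 and 7.21 in M0 arrays. The other measured markers of that list differed from M0 by only -0.07 (Zbtb46 and Cd209a) to 0.27 (Flt3) in M2a, and Xcr1 and Siglech were under every array median. Osteoblast and stromal markers summed to 197 to 230 in M2a, 303 to 329 in M1 and 323 to 647 in M0 arrays, and lymphoid markers to 190 to 195 in M2a, 177 to 203 in M1 and 308 to 436 in M0 arrays. Of 8 response genes listed for M2a, 4 were higher and 1 lower in M2a than in M0, and their linear sum was 23457 to 25430 in M2a, 863 to 940 in M1 and 7633 to 12451 in M0 arrays. The log2 difference of Arg1 from M0 was 7.68 in M2a and 3.48 in M1, and that of Cd163 was -1.32 in M2a. Of 8 response genes listed for M1, 8 were higher in M1 than in M0, and their linear sum was 381 to 408 in M2a, 19906 to 21568 in M1 and 483 to 557 in M0 arrays.

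**Figure D5:**
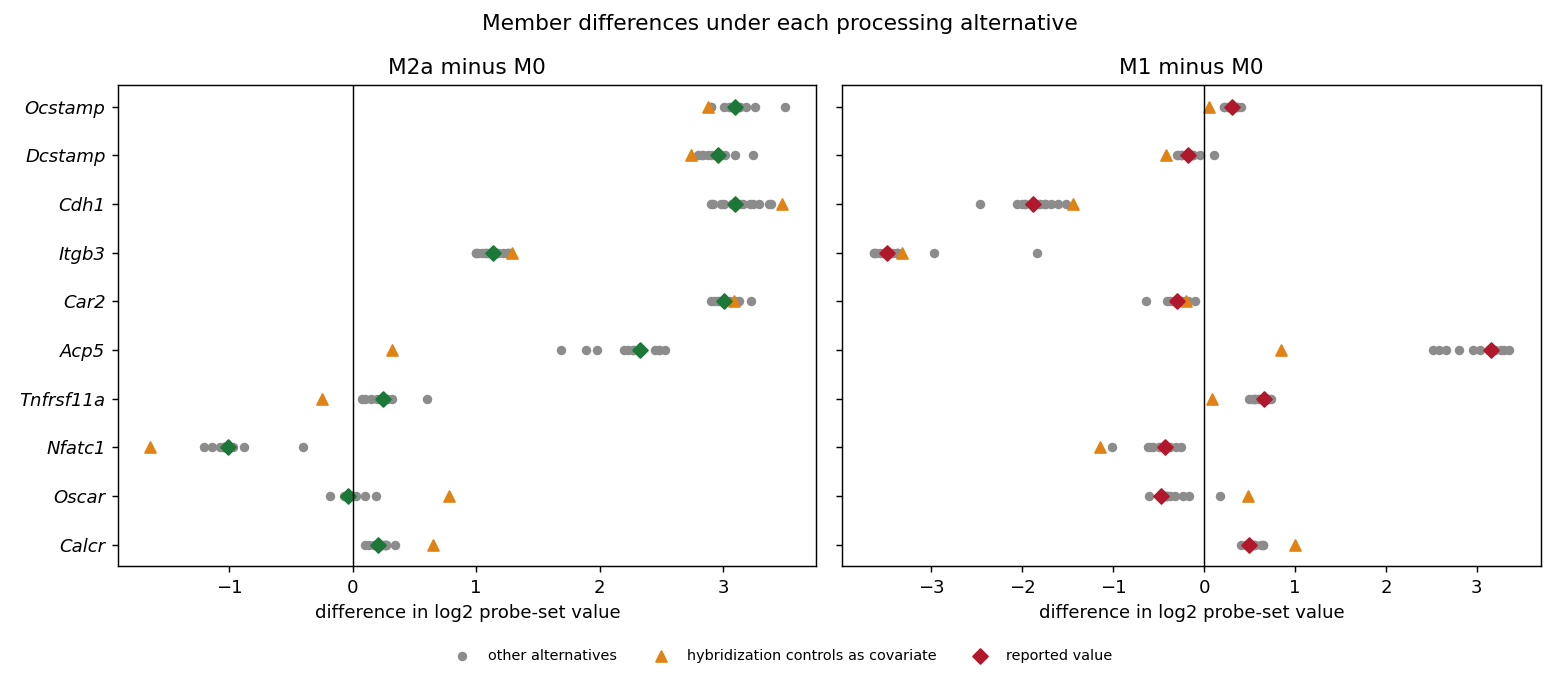
Difference in log2 probe-set value (horizontal axis) of the 10 genes in M2a minus M0 (left) and M1 minus M0 (right) as reported (diamonds), with the hybridization control covariate (triangles) and under the other alternatives (grey points). Ocstamp, Dcstamp, Cdh1 and Car2 in M2a and Itgb3 in M1 stay on one side of 0 throughout, whereas the triangles of Acp5 lie at 0.32 and 0.85, nearer to 0 than its diamonds.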

How the data were processed

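RNA of 11 macrophage samples was hybridized to Affymetrix mouse arrays. Log2 values of 45101 probe sets were deposited by the authors. Per the submitters' processing notes Partek was used; how background was corrected and probes were summarised and normalized is not given in the sources used here. Array values carry no read depth; the number of arrays limits the precision. A platform table listed 35890 probe sets, of which 34945 had 1 symbol, and 34754 of these were updated through the Entrez identifier. The probe set with the highest mean over 11 arrays stood for each of 18193 genes; 64 control probe sets were left out and no low-value filter was used.

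Groups were taken from the labels. Differences were fitted under R 4.3.3 by limma 3.58.1 (lmFit and eBayes on group means, with the 11 arrays fitted together), with two-sided p-values adjusted by Benjamini-Hochberg over all genes at a threshold of 0.05. The test was also run on simulated arrays with independent noise. That run cannot show how the p-values behave with M0 arrays that are not independent. Summed marker levels are of 2 raised to the log2 values. The members and lists were chosen with earlier results of these data known. Named besides the members were up to 2 rises and 2 falls per list and contrast and a fixed set of 13 pathway genes; Atp6v1h, Atp6v1b2, Atp6v1c1, Clcn7, Snx10 and Nfkbia were named after their values were seen. Replicate numbers did not pair the samples. Alternatives covered normalization, probe set choice, a low-value filter, the fit, arrays left out and control covariates. Promoters came from RefSeq.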

Additional observations from a re-analysis of the deposited data

How the results depend on the processing

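No difference of a member in M1 against M0 changed direction while called, and 228 of 246 recomputed values kept their side of the threshold. In place of 5 members called in M1 against M0, 3 were called among genes above the median gene (1 lower). That filter left only 6 of the 10 members to test. Acp5, Tnfrsf11a and Itgb3 kept their calls, while Cdh1 and Calcr were filtered out and so were not tested there. With the hybridization control covariate 3 were called (1 higher): Calcr and Itgb3, which are 2 of the 5, and Nfatc1, while Cdh1, Acp5 and Tnfrsf11a were lost. Against 2 lower members, 4 were called with array weights, 4 with the replicate number as a block and 4 with M0 replicates 1 to 3 only. Over all 18193 genes, 3195 were called lower as reported, and 4438, 3491 and 3537 in those fits. Leaving out 1 array gave 4 to 6 called members, with 2 to 3 higher and 2 to 3 lower. For M2a against M0, 8 of 246 values of members moved by more than the spread: Ocstamp without M2a replicate 3 (3.50), Acp5 (0.32), Nfatc1 (-1.64), Tnfrsf11a (-0.25), Oscar (0.78) and Calcr (0.65) with the hybridization controls, and Nfatc1 (-0.40) and Tnfrsf11a (0.60) with the mean of probe sets. Many of the 246 values could not move, since leaving out an M1 array or changing only the error estimate keeps the M2a and M0 means. The fits with M0 replicates 1 to 3 only and 4 and 5 only, whose means tie, also kept them. The hybridization control values of M0 do not overlap those of the other states, so that covariate extrapolates. The cause of the listed changes was not tested.

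In the companion lists, the 34 lower genes of M2a against M0 were 56 with the hybridization controls. The 37 lower genes of M1 against M0 were 63 with them and 57 with array weights. Lower calls also rose over all 18193 genes. They went from 2424 to 4021 in M2a against M0 with the hybridization controls. In M1 against M0 they went from 3195 to 3975 with them and to 4438 with array weights. M2a against M1 called 86 genes, 42 of them lower, and 131 and 66 with array weights. Over all genes, that contrast went from 2841 higher and 2500 lower to 6021 and 5321 with array weights. Leaving out 1 array gave 71 to 90 called genes in M2a against M0 (40 to 53 higher, 30 to 40 lower). It gave 78 to 99 in M1 against M0 (44 to 60 and 34 to 41), and 73 to 95 in M2a against M1 (37 to 47 and 35 to 48). Over all genes these fits called 2312 to 4078 higher and 1849 to 2751 lower in M2a against M0. In M1 against M0 they called 2897 to 4738 and 2494 to 3719. In M2a against M1 they called 2075 to 3270 and 1852 to 2922. Of 3082 recomputed values of named genes, 26 reversed. With the hybridization controls, M2a minus M0 became -1.18 for Acp2, -1.59 for Adam9, -0.09 for Blnk, -0.32 for Car13, -0.17 for Csf2rb2, -0.52 for Ctnna1, -0.98 for Ctnnb1, -0.13 for Ctnnd1, -0.03 for Mitf, -0.50 for Relb and -0.30 for Trem2. M1 minus M0 became -0.66 for Adam9, -1.83 for Blnk, 0.47 for Car8, -1.08 for Cblb, -2.02 for Ccl2, -1.11 for Ctnnb1, -0.92 for Ctnnd1, -0.69 for Mitf and 0.88 for Tnfsf11. With the actin covariate, M1 minus M0 was 0.08 for Car8 and 0.55 for Tnfsf11. Without M0 replicates 1 and 4, Acp2 in M2a was -0.31 and Blnk in M1 was -0.36. With the mean of probe sets Akt1 in M1 was 0.07, and without _x_at and _s_at probe sets Trem2 in M1 was 0.51.

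Same-numbered samples of M1 and M0 correlated at 0.248, 0.040 and 0.168 in their deviations from the group means, and those of M2a and M0 at 0.000, 0.008 and -0.039, so the block is of a number only. Dim genes such as Calcr are limited by signal, and no detection calls were used.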
